A study of Homo sapiens with 9 samples.

Results

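HOX genes encode homeodomain transcription factors that give cells of the embryo their position along the head to tail axis. In humans they lie in 4 clusters, HOXA, HOXB, HOXC and HOXD, and are numbered by paralog group, from 1 at the 3′ end of a cluster to 13 at the 5′ end. Genes toward the 3′ end are used further forward in the embryo, and those toward the 5′ end further back and later. Polycomb proteins keep the clusters silent where they are not used, Trithorax and MLL proteins keep them active, and PBX, MEIS and PKNOX proteins bind DNA together with HOX proteins. In neural crest, the embryonic tissue from which neuroblastoma arises, HOX genes differ between head and trunk levels.

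Of the 39 human HOX genes, 27 were measured by 47 probe sets annotated with that gene symbol alone, among 18132 genes with such a probe set. Members were chosen by symbol, HOXA to HOXD followed by a number. They comprised 1 HOXA gene with 2 probe sets, 10 HOXB genes with 21, 9 HOXC genes with 13 and 7 HOXD genes with 11. HOXA2 was the HOXA gene measured, and the other 10 HOXA genes were not analysed here. HOXD3 and HOXD11 were each reached only by a probe set shared with a neighbour, HOXD3/HOXD4 and HOXD10/HOXD11. Both shared probe sets are described but entered no count.

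The cells were LAN-1, an established human neuroblastoma line, spiked into tumor-free bone marrow and recovered with magnetic beads against the ganglioside GD2. RNA (100 ng) was hybridized to 9 arrays in 3 conditions with 3 biological replicates each. In the first, mononuclear cells were frozen for 7 days at -80°C in 20% DMSO, thawed and passed through an additional density gradient before the beads (frozen with gradient). In the second, cells were frozen and thawed the same way without that gradient (frozen without gradient). In the third, cells were recovered without freezing (fresh). All 3 conditions shared the line, the marrow spike-in, the first density gradient and the bead recovery. Conditions are those in the deposited labels. The study's text and these labels place the larger number of changed genes in different frozen conditions. Whether the labels of both frozen conditions were exchanged cannot be settled from the files, so each value with or without gradient, and its direction, holds for the arrays as labelled. The study's text names 3 bone marrow samples, but the labels do not tie replicate numbers to shared marrow. The main fit did not pair replicate numbers, so p-values measure the spread between these arrays.

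Values are log2 signals per probe set, and a level is not comparable between probe sets. As a yardstick for weak signal, the 95th percentile of 359 olfactory receptor probe sets, genes largely silent outside the nose, was taken on each array as the background bound. It lay between 5.24 and 6.21 over the 9 arrays. The array carries separate controls for the 3′ and the 5′ end of GAPDH. The 3′ excess over 5′ grows where labelled RNA stops short of the 5′ end. It was 2.07 to 6.73 (log2) in the arrays labelled frozen with gradient, 0.94 to 1.45 without gradient and 1.56 to 4.92 in fresh arrays. Arrays without gradient thus lay below all others. In comparisons with them, a fit with this excess as a covariate cannot tell it apart from condition. Frozen with gradient replicate 1 had the highest bound and stood apart, with a median correlation of 0.928 to the other arrays over probe sets, against 0.966 to 0.990 for the rest. Of 14 genes that mark LAN-1 and its sympathetic lineage, 13 were above the bound on all 9 arrays, among them PHOX2A, HAND2, GATA3 and MYCN. In these bulk samples, fewer cells of a type and less RNA per cell cannot be told apart.

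Most HOX genes had no probe set above the background bound on any array, and HOXD8 was the 1 gene above background in each setting that was tried. At least 1 probe set was above the bound on all 9 arrays for 5 of 27 HOX genes (18.5%): HOXD8, HOXD10, HOXC5, HOXC13 and HOXB13. The share was 52.9% for all 18132 genes and 2.7% (9 of 333) for the olfactory receptor genes that set the bound. HOXB3 and HOXD9 were in between, HOXB3 above it on 1 array with 1 of 4 probe sets, and HOXD9 on 8 arrays with 11757757_s_at and on 3 with 11725241_at, and the other 20 HOX genes were not above it on any array. Counted by probe set, 6 of 47 HOX probe sets (12.8%) and 35.8% of all 44988 probe sets were above on all arrays.

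**Figure D1:**
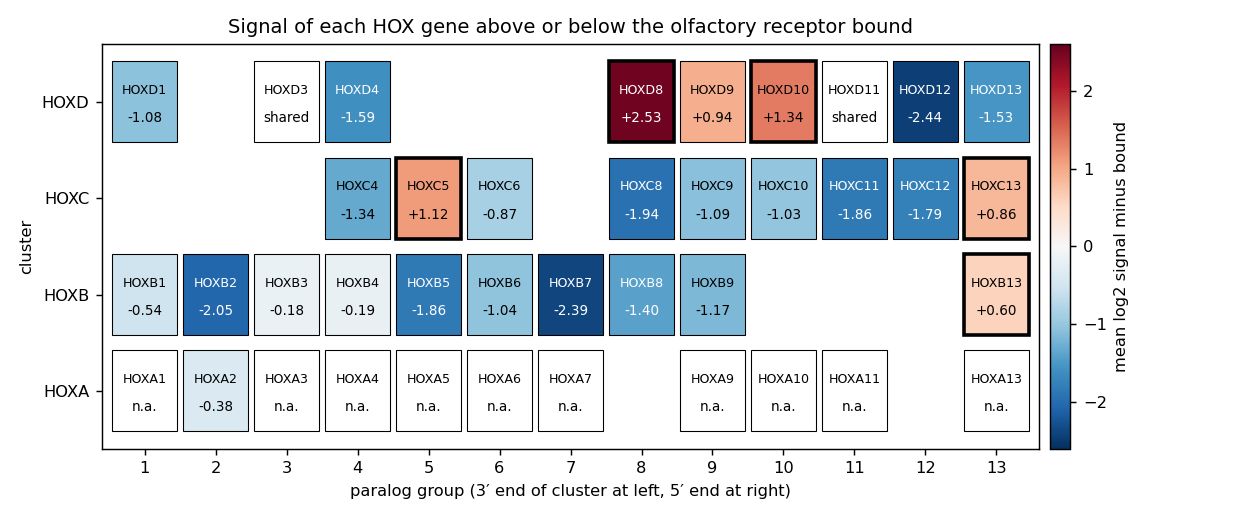
Each box is a human HOX gene, placed by cluster (rows) and paralog group (columns), with the mean over 9 arrays of the log2 signal minus the background bound for its probe set of highest mean. Thick frames mark the 5 genes above the bound on all 9 arrays, "n.a." genes not analysed here and "shared" genes reached only by a shared probe set; HOXD8, HOXD9 and HOXD10 form a run of positive boxes at 2.53, 0.94 and 1.34.

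Along HOXD, the genes above or mostly above the bound by a probe set of their own were HOXD8, HOXD9 and HOXD10, which are neighbours, HOXD9 by 1 of its 2 probe sets. On the 3′ side HOXD1 and the probe set of HOXD4 alone stayed below the bound on all arrays, with mean signals of 4.48 and 3.97, but the probe set shared by HOXD3 and HOXD4 was above it on all 9 arrays, by 2.29 on average. The run of neighbours is therefore open toward HOXD3 and HOXD4. On the 5′ side HOXD12 and HOXD13 stayed below the bound on all arrays, with probe set means of 3.11 to 4.03. In HOXC, HOXC5 stood alone between HOXC4 and HOXC6, neither above the bound on any array, and HOXC13 lay at the 5′ end next to HOXC12, which was not above it. In HOXB, HOXB13 at the 5′ end was the only gene above on all arrays, through 1 of its 4 probe sets. The HOXB and HOXC genes of paralog groups 6 to 9, often used at trunk level, were not above the bound on any array.

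The start regions of some HOXD genes and of HOXC5 are printed as the sequence context of these members. RefSeq windows of 300 bases (250 before and 50 after the annotated start, GRCh38.p14) were at hand for 10 of the 27 members, HOXD9, HOXC13 and HOXB13 not among them. Those printed are HOXD8 (chr2:176129455-176129754) and HOXD10 (chr2:176116528-176116827), both above the bound, and HOXD12 (chr2:176099545-176099844) and HOXD13 (chr2:176092471-176092770), both not above it, all on the plus strand. HOXC4 and HOXC5 share a start in the table and have 1 identical window (chr12:54016638-54016937, plus strand), although the probe set of HOXC5 was above the bound and that of HOXC4 was not. Capitals mark the motifs CCAAT and TATAAA on either strand (ATTGG and TTTATA where they lie on the other strand).
HOXD8: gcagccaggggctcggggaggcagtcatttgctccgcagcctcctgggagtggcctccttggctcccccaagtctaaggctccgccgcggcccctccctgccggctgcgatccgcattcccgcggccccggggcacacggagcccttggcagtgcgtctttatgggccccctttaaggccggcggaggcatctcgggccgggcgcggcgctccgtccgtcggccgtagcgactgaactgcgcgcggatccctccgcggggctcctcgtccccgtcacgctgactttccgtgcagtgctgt
HOXD10: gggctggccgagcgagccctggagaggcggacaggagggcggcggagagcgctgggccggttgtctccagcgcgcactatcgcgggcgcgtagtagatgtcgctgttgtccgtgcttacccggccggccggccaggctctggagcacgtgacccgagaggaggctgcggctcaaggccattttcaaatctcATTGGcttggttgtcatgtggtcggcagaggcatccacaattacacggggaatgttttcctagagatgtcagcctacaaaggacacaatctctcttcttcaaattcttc
HOXD12: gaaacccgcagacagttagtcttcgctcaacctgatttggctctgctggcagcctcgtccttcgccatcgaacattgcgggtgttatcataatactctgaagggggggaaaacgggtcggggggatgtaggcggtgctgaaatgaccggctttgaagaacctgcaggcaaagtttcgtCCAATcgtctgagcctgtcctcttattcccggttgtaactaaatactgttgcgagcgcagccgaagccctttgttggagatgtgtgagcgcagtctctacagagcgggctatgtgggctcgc
HOXD13: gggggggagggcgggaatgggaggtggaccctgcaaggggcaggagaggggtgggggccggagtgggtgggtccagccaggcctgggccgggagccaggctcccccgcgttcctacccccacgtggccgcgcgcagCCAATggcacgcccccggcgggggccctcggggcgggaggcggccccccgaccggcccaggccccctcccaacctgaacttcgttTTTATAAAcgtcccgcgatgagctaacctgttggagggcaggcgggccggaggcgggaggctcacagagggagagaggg
HOXC4 and HOXC5: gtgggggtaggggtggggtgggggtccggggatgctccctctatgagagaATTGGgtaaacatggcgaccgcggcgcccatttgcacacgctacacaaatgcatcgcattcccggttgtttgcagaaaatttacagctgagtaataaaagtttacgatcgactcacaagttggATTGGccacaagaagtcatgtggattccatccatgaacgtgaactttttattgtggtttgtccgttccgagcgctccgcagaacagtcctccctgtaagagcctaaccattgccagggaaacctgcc
The HOXD8 window was 71.7% G or C with 34 CpG dinucleotides and held neither motif. That of HOXD10 was 60.0% G or C with 23 CpG and 1 CCAAT. HOXD12 had 54.3% with 19 CpG and 1 CCAAT, and HOXD13 had 74.0% with 24 CpG, 1 CCAAT and 2 matches to TATAAA that overlap on opposite strands. The shared HOXC4 and HOXC5 window had 51.7% with 15 CpG and 2 CCAAT. Over 34796 windows of the same length, the median was 58.7% and 14 CpG, 34.6% held CCAAT and 11.6% TATAAA. The sequence TGATTNAT, a site type bound by PBX with HOX proteins, was in 2.82% of windows and in none of those printed. Of the 10 members with a window, HOXA2, not printed here, held 1 match. HOXD11, not counted as a member, also held 1. CpG-rich windows were found on both sides of the bound.

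HOXD8 was above the bound with both of its probe sets. Probe set 11762602_x_at read 9.05, 8.11 and 7.43 in the arrays labelled frozen with gradient, 8.23, 7.64 and 7.28 without gradient, and 9.08, 8.39 and 7.60 in fresh arrays. The 3 conditions overlapped, and in each of them the array numbered 1 was highest and that numbered 3 lowest. Its other probe set, 11737014_s_at, read 7.81, 7.08 and 6.86, then 7.28, 6.92 and 6.61, and 7.40, 7.07 and 6.53 in the same order of conditions. Both probe sets stayed 1.15 or more above the bound on every array.

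HOXD10, a 5′ neighbour used in limb and in lumbar spinal cord, was also above the bound on every array, by 1 of its 2 probe sets. Probe set 11730129_a_at read 7.65, 6.95 and 6.85 with gradient, 6.82, 6.85 and 6.57 without gradient, and 6.94, 6.85 and 6.63 in fresh arrays. The second probe set, 11730130_at, was lower against the bound, 0.06 under it to 0.46 over it. The probe set shared by HOXD10 and HOXD11 was between 3.16 and 4.22 and never above it.

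HOXD9 lies between these genes, and it and the shared HOXD3/HOXD4 probe set were singled out after their values had been seen. Probe set 11757757_s_at of HOXD9 read 5.78, 6.51 and 6.31 with gradient, 7.08, 6.84 and 6.65 without gradient, and 6.28, 6.62 and 6.45 in fresh arrays. Probe set 11725241_at read 5.57, 4.76 and 5.44, then 6.03, 5.55 and 5.44, and 5.44, 5.07 and 5.22 in the same order, 0.17 under the bound on average. With 11757757_s_at the arrays without gradient were higher than all others, and the array under the bound was frozen with gradient replicate 1. The HOXD3/HOXD4 probe set, 11732731_at, was above the bound everywhere, at 7.39, 7.66 and 7.77 with gradient, 7.83, 8.10 and 7.96 without gradient, and 7.90, 8.06 and 8.02 in fresh arrays. The probe set of HOXD4 alone read 3.77 to 4.26 over all arrays, and no probe set of HOXD3 alone was analysed, so which of both transcripts gave the shared signal cannot be told apart.

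HOXC5, HOXC13 and HOXB13 were above the bound on all arrays by 1 probe set each. HOXC5 read 7.001, 6.90 and 6.65 with gradient, 6.40, 6.57 and 6.55 without gradient, and 6.71, 6.65 and 6.64 in fresh arrays. HOXC13, known for its role in hair and nails, read 6.89, 6.59 and 6.35, then 6.45, 6.28 and 6.27, and 6.69, 6.17 and 6.08 in the same order. HOXB13, a gene of tail bud and prostate, read 6.60, 6.33 and 6.04, then 5.95, 6.07 and 5.92, and 6.34, 6.10 and 6.07 with probe set 11727053_at. The distance of these probe sets to the bound, which depends on the probes as well as on the transcript, averaged 1.12 for HOXC5, 0.86 for HOXC13 and 0.60 for HOXB13. The other 3 probe sets of HOXB13, with means of 5.12, 4.13 and 4.53, were not above it on any array.

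These 3 genes lay close to what the array's own background controls gave. Control probes that match no genome read 5.28 to 5.94 over the arrays with 20 G or C among their 25 bases, and 6.51 to 7.18 with 22. With the 20-base control as bound, a choice made after seeing the data, all 5 genes stayed above it on all arrays. With the 22-base control HOXD8 alone did, by probe set 11762602_x_at. In fresh replicate 3 that control read 6.68, against 6.53 for HOXD8 probe set 11737014_s_at and 6.63 for HOXD10 probe set 11730129_a_at. The base composition of the HOX probes is not in the files used here, and its part in these weak signals was not tested.

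**Figure D2:**
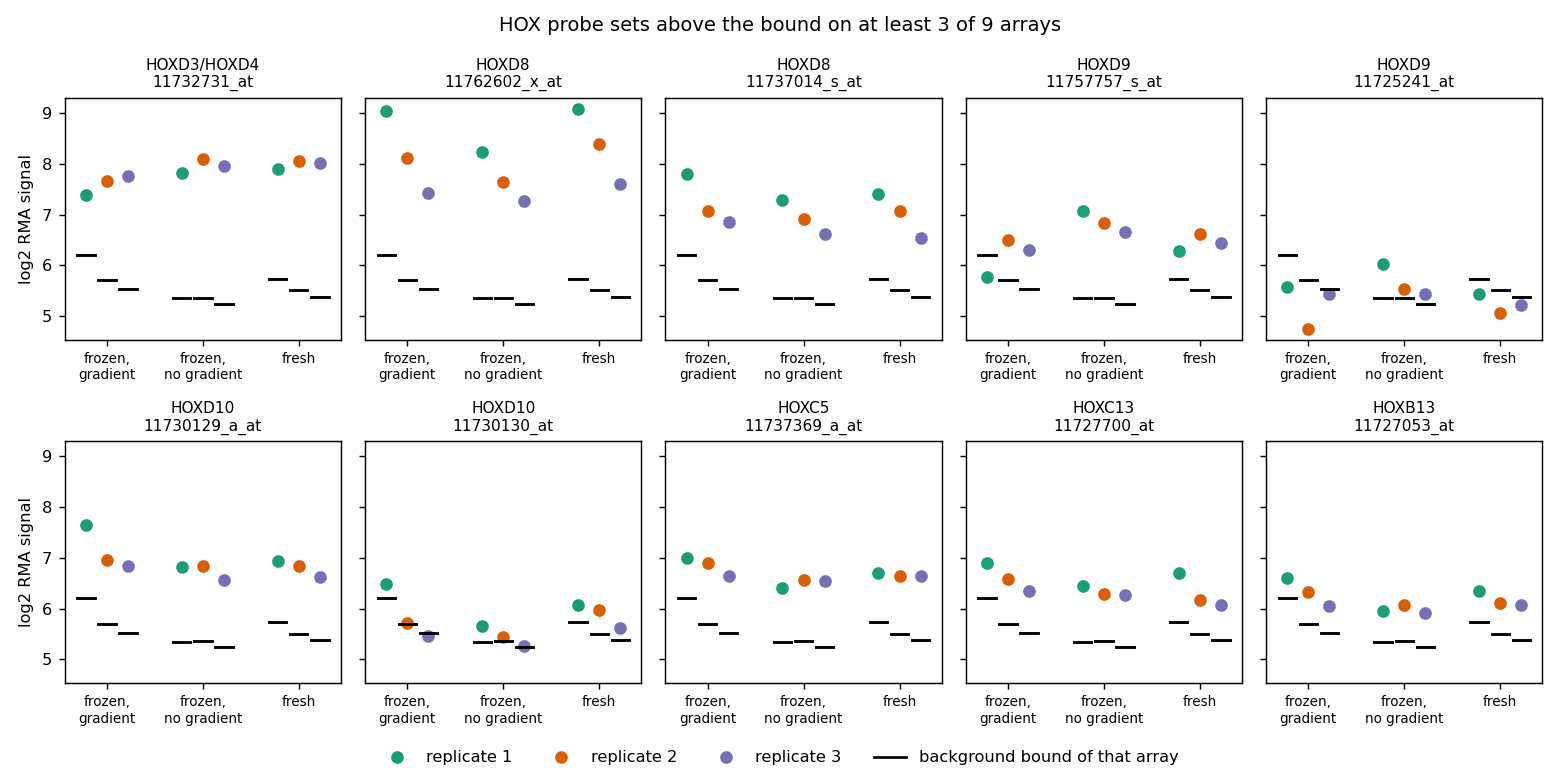
Log2 signal (y axis) on each array for the 10 HOX probe sets above the bound on at least 3 of 9 arrays, by condition (x axis); colour gives the replicate number and the black bar the background bound of that array. HOXD8 and the shared HOXD3/HOXD4 probe set clear the bound by more than 1 on every array, and both HOXD8 probe sets are highest in replicate 1 of each condition.

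The remaining 20 genes, with 31 probe sets, read 2.87 to 6.10 over all arrays with a median of 3.94. By cluster, the range was 2.97 to 6.10 for 8 HOXB genes, 2.99 to 5.09 for 7 HOXC genes and 2.87 to 4.81 for 4 HOXD genes. Nearest to the bound from below was HOXB4, 0.46 to 0.08 under it, and HOXB3 passed it by 0.04 on 1 array. HOXA2, the most anterior HOX gene in the hindbrain, read 4.08 to 5.64 over both probe sets. On each array the median of the 31 probe sets lay near that of the olfactory receptors: 4.33, 4.02 and 3.93 against 4.33, 4.06 and 3.94 with gradient, 4.02, 3.92 and 3.67 against 3.86, 3.82 and 3.78 without gradient, and 4.08, 3.93 and 3.90 against 4.22, 3.97 and 3.85 in fresh arrays. The 31 probe sets were picked for lying under the bound that olfactory receptors set, which by itself favours a median near theirs. At this signal the arrays give no level for these genes, which is not the same as no transcript.

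**Figure D3:**
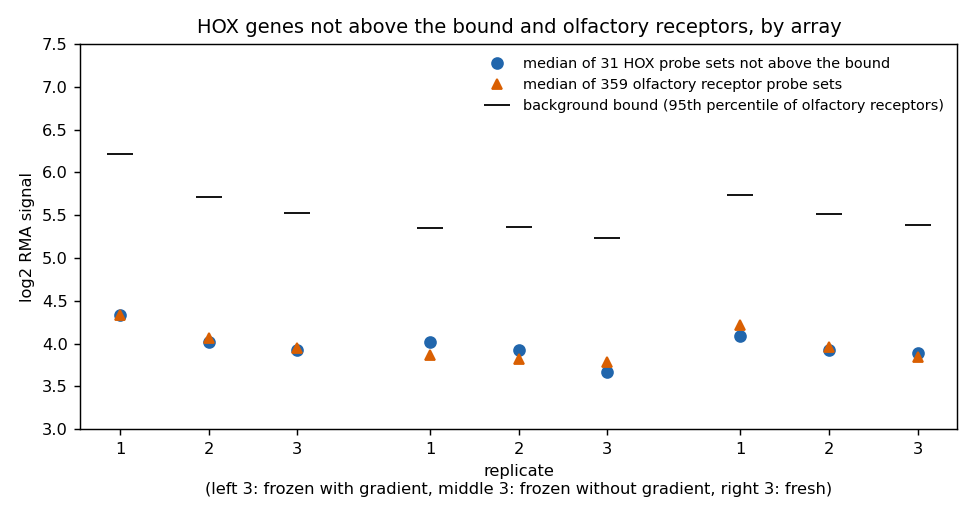
Median log2 signal (y axis) per array of the 31 HOX probe sets not above the bound (circles) and of 359 olfactory receptor probe sets (triangles), with the background bound (bars); arrays run along the x axis by condition and replicate. Circles and triangles lie close together on all 9 arrays, between 3.67 and 4.33, and both are highest in frozen with gradient replicate 1.

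The study asked how freezing, thawing and an additional gradient affect expression of tumor cells. No HOX gene changed past the criterion (unadjusted p below 0.05 and |log2FC| above 1) in any of the 3 comparisons (limma, fitted to the probe set of each gene that varied most). The count was 0 of 27 for frozen without gradient against fresh, where 2.47% of all genes passed, with the arrays as labelled. It was 0 of 27 for frozen with gradient against fresh, with 0.0882% of all genes, and 0 of 27 for with against without gradient, with 4.35%. At these shares, few or no genes of a list of 27 pass. By the probe sets fitted, 3 of the 27 genes (HOXC5, HOXC13 and HOXD8) were above the bound on all arrays, and for genes below it a fold change compares background-level signals and says little about the transcript. No gene of the whole table, HOX or other, had a Benjamini-Hochberg adjusted p under 0.05 in limma. At an unadjusted p under 0.05, 0, 1 and 4 HOX genes passed in this order of comparisons, where 13.4%, 3.65% and 20.2% of all genes did.

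Frozen without gradient against fresh, the log2 fold changes of the 27 genes ran between -0.64 (HOXD8) and 0.41 (HOXD9) with a median of -0.16, against -0.08 for all genes and -0.16 for olfactory receptor genes. The conditions did not overlap for 5 HOX genes, 2 higher (HOXD4, HOXD9) and 3 lower (HOXB6, HOXB7, HOXC5), where 11.8% of all genes were separate and higher and 13.8% lower (25.6% in all). HOXD8 averaged 7.72 ± 0.48 without gradient and 8.36 ± 0.74 in fresh arrays (SD, n = 3 each). Its 95% confidence interval, -1.74 to 0.45, from a fit that did not pair replicate numbers, leaves a change past the fold threshold undecided. Its second probe set gave -0.06. The interval lay within 1 of 0 for 24 of 27 HOX genes and for 70.9% of all genes, and for 2 (HOXC5 and HOXC13) of the 3 HOX genes above the bound by the probe set fitted.

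Frozen with gradient against fresh, the fold changes ran between -0.25 (HOXD9) and 0.46 (HOXB5) with a median of 0.12, against 0.02 for all genes and 0.11 for olfactory receptor genes. HOXC12, not above the bound in any array, was the gene with an unadjusted p under 0.05 (limma adjusted p = 0.857). HOXC12 and HOXD4 did not overlap between conditions, both higher, where 6.79% of all genes were separate, 3.82% higher than fresh and 2.97% lower. HOXD8 averaged 8.20 ± 0.81 with gradient and 8.36 ± 0.74 in fresh arrays (SD, n = 3 each), a fold change of -0.16 with an interval of -1.26 to 0.94. The interval lay within 1 of 0 for 26 of 27 HOX genes, all but HOXD8, and for 77.6% of all genes, and again for HOXC5 and HOXC13 of the 3.

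With against without gradient, most HOX genes had small positive fold changes, as did most olfactory receptor genes. The fold change was positive for 24 of 27, beside 11355 of all 18132 genes and 322 of 333 olfactory receptor genes. The median was 0.32, against 0.15 for all genes and 0.26 for olfactory receptor genes. Conditions did not overlap for 9 HOX genes, 8 higher and 1 lower, where 19.9% of all genes were higher and 15.7% lower (35.6% in all). The 8 were HOXA2, HOXB3, HOXB4, HOXB5, HOXB7, HOXB13, HOXC5 and HOXC12. Of these, HOXC5 was above the bound on all arrays by the probe set fitted, at 6.85 ± 0.18 with gradient and 6.51 ± 0.10 without (SD, n = 3 each). Its fold change was 0.34 with an adjusted p of 0.244 in limma. Without frozen with gradient replicate 1 the median of the 27 genes was 0.13, and it was -0.03 once the GAPDH 3′ excess was a covariate. As that excess did not overlap between both frozen conditions, the covariate fit cannot tell it apart from condition.

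By the labels, whose frozen conditions are open to the doubt given above, HOXD9 was the 1 HOX gene lower in every array with gradient than in any without. It averaged 6.20 ± 0.38 with gradient and 6.86 ± 0.22 without gradient (SD, n = 3 each), a fold change of -0.66 (interval -1.14 to -0.17, adjusted p = 0.244 in limma). The second probe set of HOXD9 gave -0.41. The value was -0.45 without frozen with gradient replicate 1 and -0.37 with the GAPDH covariate. HOXD8 and HOXD10, its neighbours, gave 0.48 and 0.43 in this comparison, with intervals of -0.62 to 1.58 and -0.18 to 1.03. The interval lay within 1 of 0 for 21 of 27 HOX genes and for 63.6% of all genes, HOXC5 and HOXC13 among the 21 and HOXD8 not. All 3 comparisons share condition means, so their values for a gene are not independent of each other.

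**Figure D4:**
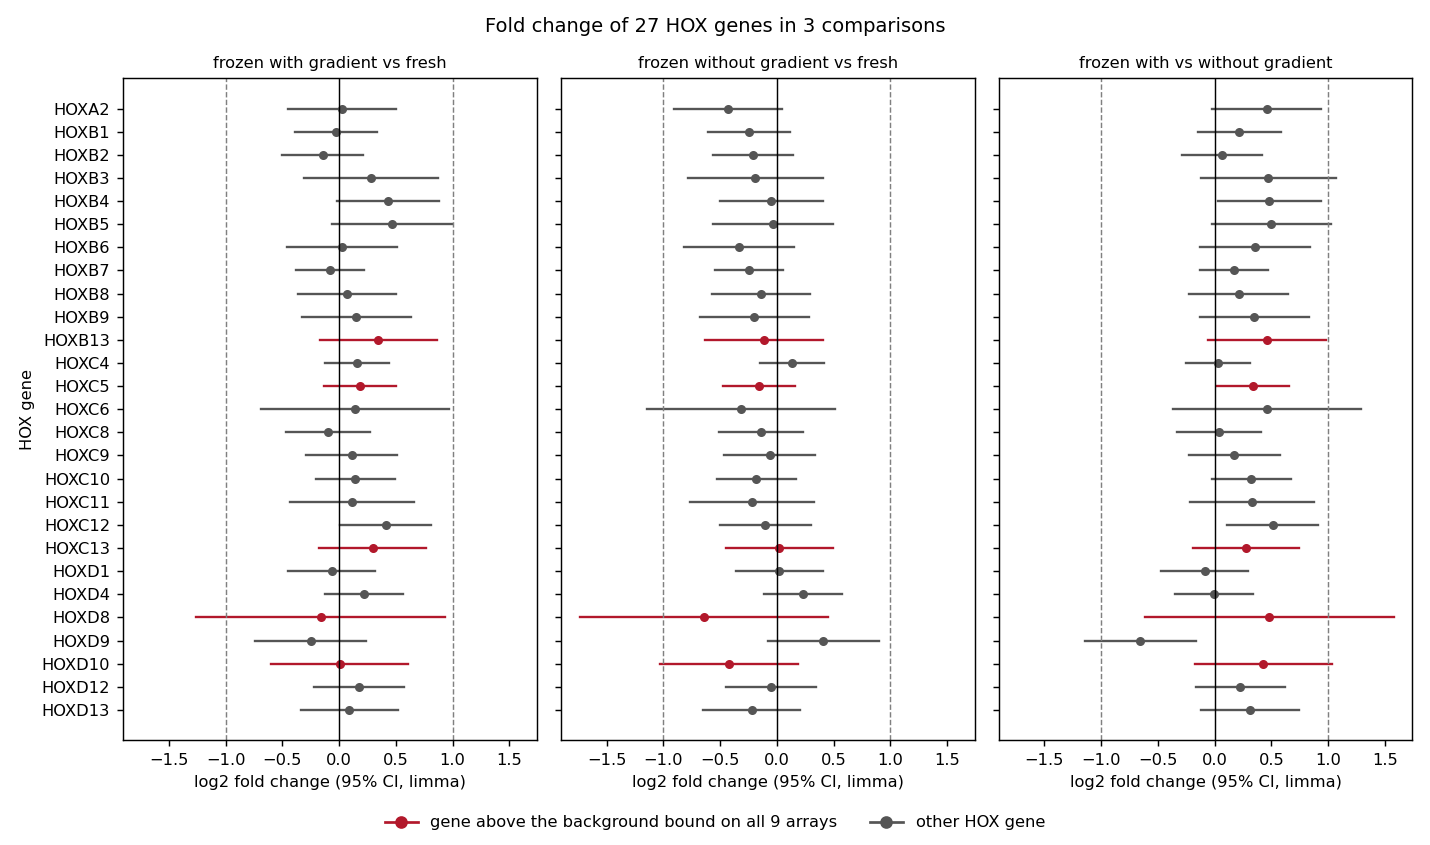
Log2 fold change (x axis, points) with its 95% confidence interval (lines, limma) for 27 HOX genes in cluster order (y axis) in 3 comparisons, using the probe set of each gene that varied most; dashed lines mark a fold change of 1 in either direction. No point lies outside the dashed lines, HOXD8 has the widest interval, and HOXD9 has the opposite sign to HOXD8 and HOXD10 in both comparisons that involve the arrays without gradient.

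The spread between replicate numbers was as large as that between conditions. For HOX genes the SD of the 3 replicate-number means had a median of 0.19 and that of the 3 condition means 0.17, and for all genes 0.20 and 0.21. HOXD8 was the extreme, with 0.68 between replicate-number means and 0.33 between condition means. The array numbered 1 was highest in all 3 conditions for 10 of 27 HOX genes (37.0%) and for 20.9% of all genes. HOXD8, HOXD10, HOXC13, HOXC11, HOXB2, HOXB6, HOXB8 and HOXB9, by the probe sets fitted, kept 1 order of replicate numbers in all conditions (29.6%, against 16.3% of all genes). The median signal of the olfactory receptors was also highest in the arrays numbered 1 and lowest in those numbered 3, in every condition. Its part in the HOX pattern was not tested.

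Most measured cofactors of HOX proteins were above background in the same cells. Of 9 genes listed, 8 were measured, and 6 were above the bound on all arrays: PBX2, PBX3, MEIS1, MEIS2, MEIS3 and PKNOX1. PBX3 averaged 10.16 ± 0.12 and MEIS2 11.14 ± 0.43 (SD, n = 9 arrays) by their probe sets of highest mean. PKNOX1 passed the criterion, 1 of 8, in frozen without gradient against fresh (log2 fold change 1.17, limma adjusted p = 0.334), where 2.47% of all genes passed. It was also the 1 of 8 in with against without gradient, where it fell by 1.25 (limma adjusted p = 0.244) and 4.35% of all genes passed. The fitted probe set of PKNOX1 was above the bound on 2 of 3 arrays with gradient, 3 without gradient and 2 fresh. By the most variable probe sets, the medians of the 8 fold changes were 0.18 and -0.42, beside -0.08 and 0.15 for all genes. With its probe set of highest mean PKNOX1 gave 0.53 and -0.87, neither past the fold threshold, and both calls were also lost with the GAPDH covariate. They were lost in 4 and in 3 of 9 fits that left out 1 array (0.73 to 1.39, and -1.57 to -0.78), the first without any 1 of the arrays frozen without gradient or without fresh replicate 1. The second was lost without frozen with gradient replicate 1, or without frozen without gradient replicate 1 or 2.

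The machinery that silences and activates HOX clusters was mostly above background. Of 22 Polycomb genes measured, 19 were above the bound on all arrays, among them EZH2, which methylates histone H3, and its partners SUZ12 (10.79 ± 0.31) and EED. CBX2, a reader of that mark, averaged 10.78 ± 0.27 (SD, n = 9 arrays each). Of 17 Trithorax and MLL genes, 12 were above, with DPY30 at 11.46 ± 0.23 and PSIP1 at 9.78 ± 0.30 (SD, n = 9 arrays each). Against fresh, frozen without gradient, 1 of 22 Polycomb genes rose past the criterion, PHC2 (1.27, limma adjusted p = 0.315), and 1 of 17 Trithorax and MLL genes, KMT2C (1.34, limma adjusted p = 0.354), beside 2.47% of all genes. Frozen with gradient against fresh, none of either list passed in limma, and 1 Polycomb gene and 2 of the others had an unadjusted p under 0.05, beside 3.65% of all genes. With against without gradient, 3 Polycomb genes (JARID2 -1.85, PHC2 -1.42, and PCGF2) and 3 Trithorax and MLL genes (KMT2C -1.68, KMT2B -1.26, WDR5 -1.06) fell, with limma adjusted p-values of 0.244 to 0.246, beside 4.35% of all genes past the criterion in either direction. PCGF2 averaged 4.66 with gradient and 5.73 without gradient by the probe set fitted, which was not above the bound on any array with gradient, so no fold is given. The fitted probe sets of JARID2, KMT2B, KMT2C and PHC2 were above it on 2 of 3 arrays with gradient and on all 3 without. That of PHC2 was above it on 2 of 3 fresh arrays. The medians were 0.28 and 0.32 in the first comparison and -0.33 and -0.55 in the last, beside -0.08 and 0.15 for all genes. No call of either list held with the GAPDH covariate or with the mean of all probe sets of a gene. In both comparisons with calls, that covariate did not overlap between conditions, so its part cannot be told apart from condition. With the probe set of highest mean, JARID2 gave -0.23, KMT2C -0.78 and WDR5 -0.89 with against without gradient, and PHC2 0.85 and KMT2C 0.64 without gradient against fresh. These calls and that of PCGF2 were lost there, and those of KMT2B and of PHC2 with against without gradient held. Leaving out frozen without gradient replicate 2 or 3 or fresh replicate 1 ended the call of PHC2 against fresh (0.69 to 1.79), and leaving out any array without gradient or fresh replicate 1 or 2 that of KMT2C (1.06 to 1.71). Of the calls with against without gradient, those of JARID2, KMT2B, KMT2C, PCGF2 and WDR5 were lost without frozen with gradient replicate 1, in all in 4, 6, 1, 2 and 5 of 9 such fits, while PHC2 kept its call in all 9 fits that left out 1 array.

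Other genes of positional identity also gave a mixed picture. Of 19 ParaHox and HOX-linked homeobox genes, 6 were above the bound on all arrays and 11 on none. MNX1, a motor neuron factor, averaged 7.44 ± 0.22 and DLX4 7.20 ± 0.28 (SD, n = 9 arrays each), and EVX2, which lies at the 5′ end of the HOXD cluster, read 5.61 to 6.57. CDX1, CDX2 and CDX4, which activate trunk and tail HOX genes in the embryo, were not above it on any array. Of 14 anterior patterning genes, SIX3, IRX5 and IRX3 were above on all arrays. SIX3, a forebrain and eye factor, read 9.36 ± 0.33 and IRX5 8.29 ± 0.28 (SD, n = 9 arrays each). OTX2, EMX1, EMX2 and EN1, which pattern forebrain and midbrain, were among 8 genes not above the bound on any array. Of 13 upstream signals, 5 were above, including GMNN (11.02 ± 0.13), a replication licensing inhibitor that also binds HOX proteins, and CTCF (9.07 ± 0.24), which marks domain borders within the clusters (SD, n = 9 arrays each). The retinoic acid receptors RARA and RARG were above on all arrays and RARB on 2. No gene of these 3 lists passed the criterion in any comparison in limma, where an unadjusted p under 0.05 was reached by 2 genes without gradient against fresh, by 1 with gradient against fresh and by 1 between both frozen conditions, beside 13.4%, 3.65% and 20.2% of all genes. Of a list of 24 other genes within the HOX clusters, nearly all of them noncoding, HOXB-AS3, an antisense RNA, and PRAC1, a small protein-coding gene beside HOXB13, were measured, and neither was above the bound on any array.

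Blood and marrow cells use HOX genes too, so their markers are given beside these results. Of 7 hematopoietic stem and progenitor markers, HLF and MECOM were above the bound on all arrays, CD34 on 1, and FLT3, SPINK2, CRHBP and AVP on none. The log2 of their summed signals was 8.58 to 8.83 with gradient, 8.26 to 8.53 without gradient and 8.48 to 9.23 in fresh arrays. Of 13 granulocyte and monocyte markers, 5 were above on all arrays and 3 on none, with sums of 9.58 to 11.86 with gradient, 8.63 to 10.41 without gradient and 10.40 to 12.48 in fresh arrays. For 6 erythroid markers, 3 above, sums were 9.94 to 10.38, 7.88 to 9.70 and 10.94 to 12.76 in the same order. Of 11 lymphoid markers, CD79A and GNLY were above on all arrays and the other 9, PTPRC among them, on none, with sums of 8.47 to 9.23, 8.35 to 8.44 and 8.40 to 8.69. Of 11 stroma and endothelium markers, 5 were above on all arrays and 3 on none, with sums of 9.98 to 10.22, 9.61 to 9.81 and 9.79 to 10.26. The part of these cells in the HOX signals was not tested.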

How the data were processed

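Per the labels and methods, the authors hybridized total RNA to 1 PrimeView array per sample, computed RMA signals (background correction, quantile normalization, probe set summary; version not given in the sources used here) and deposited log2 values for 49395 probe sets. Depth does not apply to arrays, and 3 arrays per condition limit the precision. The deposited log2 values were used unchanged. Left out were 102 controls, 1832 probe sets with several symbols and 2473 with none, leaving 44988 probe sets of 18132 genes. Symbols come from the platform annotation, which can be old.

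The most variable probe set per gene was fitted over 3 condition means with limma 3.58.1 (R 4.3.3), as the methods state, and p-values were adjusted by Benjamini-Hochberg over all genes. The procedure was tested on simulated data. Genes above the bound on all 9 arrays, and list members past the criterion (at most 3 by p) or with the highest 2 means, were named. Members and lists were chosen with earlier results of these data known. Alternatives covered probe set choice, normalization, filters, fit, covariate, bound and each array left out.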

Additional observations from a re-analysis of the deposited data

How the results depend on the processing

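No HOX gene passed the criterion in any of 22 settings of any of the 3 comparisons, or at an adjusted p under 0.05 in the fit as reported, and the count was 0 with each array left out. With the replicate number as a replicate block the count was also 0, with 3, 2 and 11 HOX genes at an unadjusted p under 0.05 (without gradient against fresh, with gradient against fresh, with against without), and 729, 25 and 1298 of all genes past the criterion, against 448, 16 and 788. The labels give only a shared number: 7 of 9 same-numbered pairs correlated over 0.1 in their deviations (0.0089 to 0.80), and 7 of 9 arrays correlated best with their own number. Array weights, whose estimation stopped before it converged, put 9, 17 and 19 HOX genes, and 8739, 13077 and 10603 of all genes, under an adjusted p of 0.05 without any HOX gene past the fold threshold, and 1088, 109 and 697 of all genes past the criterion. With the GAPDH covariate, 204, 19 and 87 of all genes passed, and the HOX median was 0.10, 0.04 and -0.03, against -0.16, 0.12 and 0.32. In the first and last of these comparisons the covariate did not overlap between conditions and cannot be told apart from them. Leaving out 1 array gave medians of -0.21 to -0.07, -0.04 to 0.22 and 0.13 to 0.44. The lowest gradient-against-fresh value, -0.04, came without frozen with gradient replicate 1. Across these fits 87 to 1419, 9 to 190 and 196 to 2039 of all genes passed the criterion. HOXD8 without gradient against fresh gave -1.02 to -0.28 in the fits that left out 1 array, never past the criterion. In 1 other setting its fold change was positive, and it differed from the main value by at least its SD within conditions (0.69).

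The count of 5 HOX genes above the bound depended on how background was set. It was 2 (HOXD8, HOXD10) with the 99th percentile, 3 (HOXC5, HOXC13, HOXD8) where every probe set had to pass, 3 with the most variable probe set only, 1 (HOXD8) with hair keratin and taste receptor probe sets as the silent list, and 1 (HOXD8) with the background control of 22 G or C bases, the last added after seeing the data. It was 6 with the 90th percentile or with 5 of 9 arrays required, 5 with cyclic loess, and 5 to 6 with each array left out, HOXD9 joining without frozen with gradient replicate 1. HOXD8 was above in every setting.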
